A study of Mus musculus with 27 samples.

Results

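Expression of 7 mouse genes for bridge-like lipid transfer proteins was examined in cortex after microinjection of a retromer stabiliser. The genes were those that the deposited table lists as vps13a, vps13b, vps13c, vps13d, atg2a and atg2b together with Bltp1, which it lists under its RIKEN clone symbol, and all 7 were found by symbol among 26264 in the table. All 7 also had a mean of at least 1 FPKM (fragments per kilobase of transcript, scaled to the counted fragments of the library) and were thus among the 12976 genes tested. Tissue came from female 5xFAD mice at 16 weeks of age, which carry human transgenes with familial Alzheimer mutations. The vehicle controls carried the same transgenes, and no wild-type mice were analysed here. The drugs R33 and R55, a pair of thiophene thioureas, were injected at 10 mM into the parietal associative cortex of 1 hemisphere, and vehicle mice received the same DMSO and cyclodextrin solution without drug. After 24 h, a cortical block was taken from the injected side and another from the opposite, contralateral side, and each was sequenced as its own library. The 27 libraries came from 4 vehicle mice (J, M, L and AH), 5 R33 mice (K, N, O, AD and AE) and 5 R55 mice (P, Q, R, AA and AB). R33 mouse AE was represented by its injected hemisphere alone.

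Bridge-like lipid transfer proteins are long rods with a hydrophobic groove along which phospholipids flow from one membrane to another at contact sites. The VPS13 proteins, named after a yeast vacuolar protein sorting gene, lie between the endoplasmic reticulum and other organelles, and loss of each human member causes its own neurological disease. The ATG2 proteins feed lipid from the endoplasmic reticulum into the growing autophagosome, and BLTP1 is the longest protein of the group in mammals. The study asked how stabilising retromer, the complex that sorts cargo out of endosomes, changes expression, and its authors took up the Vps13 family from their own calls on these mice. The direction of the family here is therefore no independent evidence.

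Libraries held 15932197 to 38077027 fragments on genes, with a median of 27441308. Each value could be turned back into whole fragments, which gave between 748 and 5522 fragments for each member in each library, so counting error was small beside the spread between mice. Defining markers of neurons, astrocytes, oligodendrocytes and microglia were detected, and the 4 haemoglobin genes listed as red blood cell markers were at 0 in all 27 libraries. Perfusion is described for the histology mice only, and why these values were 0 was not tested, so they give no measure of blood in the tissue. The tissue is bulk cortex, in which fewer cells of a type and less RNA per cell cannot be told apart. A pair of libraries stood apart from the others, the injected library of R33 mouse AD and the contralateral library of R55 mouse Q. In both, other genes fell steeply with transcript length relative to their own mean over all libraries. The slopes were -0.75 and -0.58 log2 units per 10-fold increase of length, against -0.20 to 0.22 in the remaining libraries. A slope thus compares a library with the others. Treatment results and interactions with hemisphere are given with and without them where they bear on the value.

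All 7 genes have longer transcripts than most tested genes, and all but Atg2a exceed 10000 bp, which matters below. The lengths that the authors used were 15883 bp for Bltp1, 15849 bp for Vps13d, 13799 bp for Vps13b, 13678 bp for Vps13c, 11164 bp for Vps13a, 10172 bp for Atg2b and 6340 bp for Atg2a. The median of the tested genes was 3149 bp, and Bltp1 and Vps13d ranked 33 and 35 among the 12976. In GENCODE on GRCm39, the build used by the authors, Vps13a lies on the reverse strand of chromosome 19 from 16592730 to 16758354 and has 72 exons in its canonical transcript. Vps13b lies on the forward strand of chromosome 15 from 35371256 to 35931386 with 62 exons, and Vps13c on the forward strand of chromosome 9 from 67747669 to 67905024 with 85 exons. Vps13d occupies the reverse strand of chromosome 4 from 144699192 to 144921614 with 69 exons. Bltp1 spans 36917253 to 37107595 on the forward strand of chromosome 3 with 86 exons. Atg2a is compact, from 6291698 to 6312365 on the forward strand of chromosome 19 with 40 exons, and Atg2b runs from 105579795 to 105651569 on the reverse strand of chromosome 12 with 42 exons. Exons of Vps13b share 451 bp with Cox6c and exons of Atg2b share 482 bp with Gskip, both on the opposite strand, and the libraries were stranded, but whether the counting used the strand is not given in the sources used here.

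Promoters are shown for the members whose expression differed least and most among those with an entry, Atg2a against Bltp1 and Vps13d, to show how unlike their starts are. RefSeq held promoters for 5 of the 7 members on GRCm38.p6, and Vps13b and Vps13c had no entry. The 250 bases before the annotated start are printed 5′ to 3′ on the strand of the gene, at chr3:36862856-36863105 (forward) for Bltp1, chr4:145195006-145195255 (reverse) for the upstream one of the starts of Vps13d, and chr19:6241418-6241667 (forward) for Atg2a. Capitals mark GC boxes (GGGCGG) and CCAAT boxes (CCAAT), searched on both strands, with a pair of overlapping GC boxes in Bltp1.
Bltp1: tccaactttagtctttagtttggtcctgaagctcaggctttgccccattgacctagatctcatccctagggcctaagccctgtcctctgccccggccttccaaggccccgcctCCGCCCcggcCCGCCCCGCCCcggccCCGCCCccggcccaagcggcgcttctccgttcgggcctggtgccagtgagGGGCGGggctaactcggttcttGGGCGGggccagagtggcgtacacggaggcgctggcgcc
Vps13d: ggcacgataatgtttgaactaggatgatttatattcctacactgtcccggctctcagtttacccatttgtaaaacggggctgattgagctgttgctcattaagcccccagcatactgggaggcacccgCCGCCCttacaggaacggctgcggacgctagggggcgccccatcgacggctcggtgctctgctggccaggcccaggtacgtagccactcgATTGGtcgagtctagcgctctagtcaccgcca
Atg2a: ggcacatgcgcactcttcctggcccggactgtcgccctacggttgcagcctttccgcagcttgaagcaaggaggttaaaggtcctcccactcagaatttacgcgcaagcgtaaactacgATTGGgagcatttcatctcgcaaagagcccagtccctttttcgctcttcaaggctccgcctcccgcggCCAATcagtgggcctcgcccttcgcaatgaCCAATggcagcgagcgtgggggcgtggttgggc
The Bltp1 window held 6 GC boxes and no CCAAT box, and Atg2a held the reverse, 3 CCAAT boxes and no GC box. Vps13d had 1 of each at the start shown and neither box at its other start. The windows of Atg2b and Vps13a, not printed, held 3 and 2 GC boxes and no CCAAT box. Of the 32851 promoters in RefSeq, 32.7% held a GC box and 33.8% a CCAAT box in the same window. The E-box CACGTG, the core of the site that lysosomal and autophagy genes often share, was in 6.02% of all promoters and in none of these 6 member windows, both starts of Vps13d included. A match of letters is a description of the window and not a binding site.

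Atg2a, which extends the autophagosome membrane, was the most abundant member per length, at 8.54 ± 0.66 FPKM (SD, n = 14 mice, the hemispheres averaged). Vps13d, which acts at mitochondria and peroxisomes, followed at 6.47 ± 0.97 FPKM, and Bltp1 at 6.43 ± 1.23 FPKM. Those values differed by 0.045 FPKM, less than the spread between mice, with Vps13d higher in 7 of 14 mice (two-sided exact sign-flip permutation test, p = 0.71 raw and adjusted over 6 neighbouring pairs). Atg2b, the paralog of Atg2a, measured 5.58 ± 0.47 FPKM, below Bltp1 in 11 of 14 mice (exact permutation p = 0.0034, adjusted p = 0.0051). These values pool the treatments, between which the gap varied. Bltp1 and Atg2b averaged 7.73 and 5.98 FPKM in vehicle mice, 6.21 and 5.465 in R33 mice, and 5.61 and 5.37 in R55 mice. Vps13a, the gene mutated in chorea-acanthocytosis, measured 4.90 ± 0.67 FPKM and was below Atg2b in 13 of 14 mice (exact permutation p = 0.00037, adjusted p = 0.00073). Vps13b, the Golgi-associated member mutated in Cohen syndrome, measured 4.03 ± 0.68 FPKM and was below Vps13a in all 14 mice (exact permutation p = 0.00012, the smallest that 14 mice can give, adjusted p = 0.00037). Vps13c, which bridges the endoplasmic reticulum and late endosomes and is mutated in early-onset Parkinson's disease, was lowest at 3.65 ± 0.79 FPKM and below Vps13b in 11 of 14 mice (exact permutation p = 0.011, adjusted p = 0.014). Atg2a exceeded Vps13d in all 14 mice (exact permutation p = 0.00012, adjusted p = 0.00037). Atg2a was the highest member in 26 of 27 libraries and Vps13c the lowest in 21. The gap of Vps13b over Vps13c was 0.31 FPKM in the injected hemisphere alone, where it did not pass (adjusted p = 0.081, exact permutation test). Atg2a is also the shortest member, at 6340 bp. These tests show that an order recurs between mice, and a bias on length shared by all libraries was not tested.

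**Figure D1:**
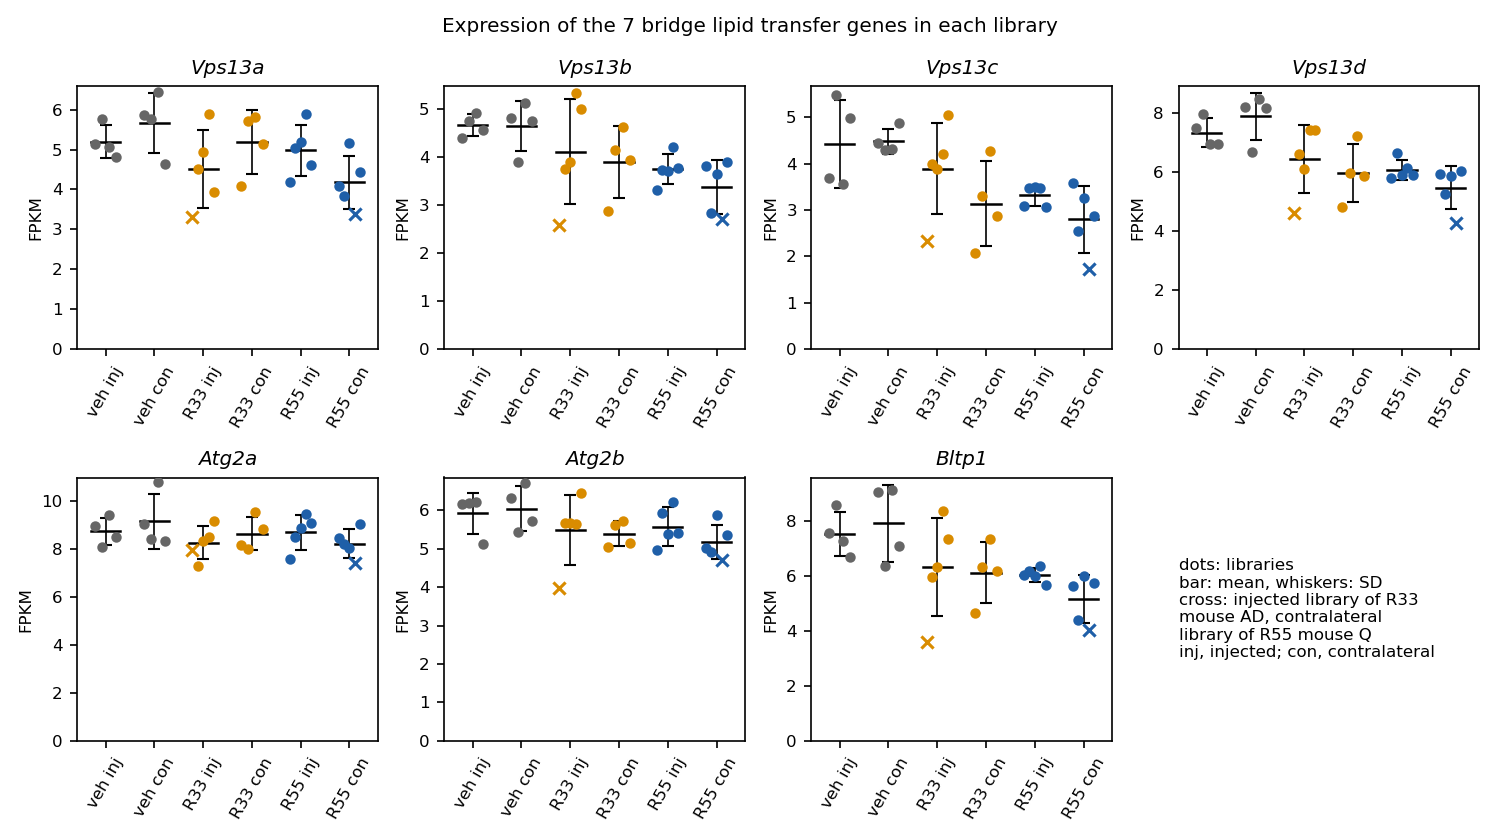
FPKM (y axis) of the 7 genes in each of the 27 libraries, by treatment and hemisphere (x axis); dots are libraries, the bar is the mean, whiskers are the SD, and crosses mark the injected library of R33 mouse AD and the contralateral library of R55 mouse Q. The R55 libraries of Vps13d sit between 4.26 and 6.64 FPKM and the vehicle libraries between 6.68 and 8.46, while those of Atg2a overlap throughout.

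The 7 genes were first compared between R55 and vehicle mice. Vps13c, Bltp1, Vps13d and Vps13b had the lowest values after R55 relative to vehicle, at 0.74 to 0.80 of the vehicle level on the scale of FPKM + 1, while Atg2a and Atg2b differed little. None passed the threshold after adjustment over all genes, an adjusted p-value under 0.05 in limma with Benjamini-Hochberg adjustment. With 0 of 7 members called, the background was 0.00771% of 12976 genes, a single gene, Ryr2, the neuronal ryanodine receptor (log2 fold change -0.50, SE 0.083, adjusted p = 0.032). At an unadjusted p-value under 0.05, 6 of 7 members were lower and none higher, against 3.74% of all genes lower (485 of 12976). With voom on the recovered fragments the counts were the same, 0 members called, 1 gene called and 6 members lower at an unadjusted p under 0.05. In the injected hemisphere alone 1 of 7 members, Vps13d, was lower at that threshold, against 73 of 12976 genes lower and 68 higher. In the contralateral hemisphere alone 6 of 7 were, against 615 genes lower and 875 higher, with no gene called in either. Log2 fold changes are given below on the scale of log2(FPKM + 1) with their standard error (SE), and mouse values are means over the hemispheres.

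Vps13d measured 7.33, 7.55, 7.70 and 7.85 FPKM in vehicle mice J, M, L and AH. After R55 it measured 5.88, 5.20, 5.97, 5.87 and 5.96 FPKM in mice P, Q, R, AA and AB. The groups did not overlap, and mouse Q was lowest. The log2 fold change was -0.35 (SE 0.078, adjusted p = 0.13), and it rested on both hemispheres, with -0.24 in the injected and -0.46 in the contralateral one. Vps13c measured 4.89, 4.92, 3.94 and 4.07 FPKM in the vehicle mice, J and M being well above L and AH. It measured 3.38, 2.60, 2.96, 3.33 and 3.01 FPKM after R55, and all 5 R55 mice were below the lowest vehicle mouse. Its log2 fold change was -0.43 (SE 0.11, adjusted p = 0.26), the most negative of the 7.

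Vps13b measured 4.34, 4.65, 5.03 and 4.61 FPKM in the vehicle mice and 3.69, 3.46, 3.83, 3.57 and 3.29 FPKM in the R55 mice. The groups did not overlap, and the log2 fold change was -0.31 (SE 0.089, adjusted p = 0.33). Vps13a, which forms a complex with the scramblase XK at the plasma membrane, measured 5.76, 4.72, 5.75 and 5.50 FPKM in vehicle mice and 5.17, 4.63, 4.52, 4.14 and 4.43 FPKM after R55. Here R55 mouse P exceeded vehicle mouse M, and the other R55 mice were below all vehicle mice. The log2 fold change of Vps13a was -0.21 (SE 0.092, adjusted p = 0.57).

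Bltp1 measured 7.49, 6.90, 8.20 and 8.32 FPKM in the vehicle mice and 6.0, 5.20, 5.72, 5.84 and 5.29 FPKM in the R55 mice. The groups were apart for this gene too, with a log2 fold change of -0.40 (SE 0.11, adjusted p = 0.28). The ATG2 pair differed less. Atg2b measured 5.80, 5.42, 6.47 and 6.24 FPKM in vehicle mice and 5.62, 5.46, 5.38, 4.99 and 5.42 FPKM after R55, with overlap at vehicle mouse M and a log2 fold change of -0.13 (SE 0.064, adjusted p = 0.59). Atg2a measured 8.23, 8.43, 10.1 and 9.0 FPKM in vehicle mice and 8.46, 8.43, 9.05, 8.01 and 8.33 FPKM after R55. Its groups overlapped widely, with a log2 fold change of -0.07 (SE 0.056, adjusted p = 0.67) and a 95% interval from -0.19 to 0.04.

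With 1 value per mouse, 4 of 7 members had all 5 R55 mice below every vehicle mouse, against 1.41% of all tested genes (183 of 12976). For each of these, Vps13b, Vps13c, Vps13d and Bltp1, the two-sided exact permutation test over the 126 splits of 9 mice gave p = 0.0079, the smallest it allows. These 4 are also the longest members, and the share among other genes of their length is not given here. For Atg2b the exact permutation p was 0.024, for Vps13a 0.040 and for Atg2a 0.29. Run on all 12976 genes and adjusted over them, this exact test called no gene, with a smallest adjusted p of 0.58 and 839 genes at an unadjusted p under 0.05.

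R33 mouse AD is in neither group of the R55 comparison, but in the main fit all mice share 1 estimate of the spread. In that fit, which takes the hemispheres of a mouse as independent, the calls of members depended on AD. Without AD the log2 fold changes were the same and the standard errors of all members but Atg2a were smaller. Then 4 of 7 members were called with limma, Vps13d (adjusted p = 0.012), Bltp1 (0.023), Vps13c (0.030) and Vps13b (0.036), among 50 genes in all. With R55 and vehicle mice alone in the fit, Vps13d was called (adjusted p = 0.047, limma) among 12 genes. With all mice and the correlation of the hemispheres within a mouse modelled as a block, the smallest member p-value was 0.00091 (Vps13d, limma, adjusted p = 0.90). In that fit 4 members kept an unadjusted p under 0.05, against 258 of 12976 genes lower and 261 higher, and no gene was called. With 1 value per mouse the adjusted p of Vps13d was 0.92 (limma). No fit without AD, and none with R55 and vehicle mice alone, modelled that correlation. Without the pair of libraries that stood apart, the log2 fold changes were -0.31 for Vps13d, -0.38 for Vps13c, -0.29 for Vps13b and -0.36 for Bltp1, with adjusted p-values from 0.060 to 0.16 (limma).

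**Figure D2:**
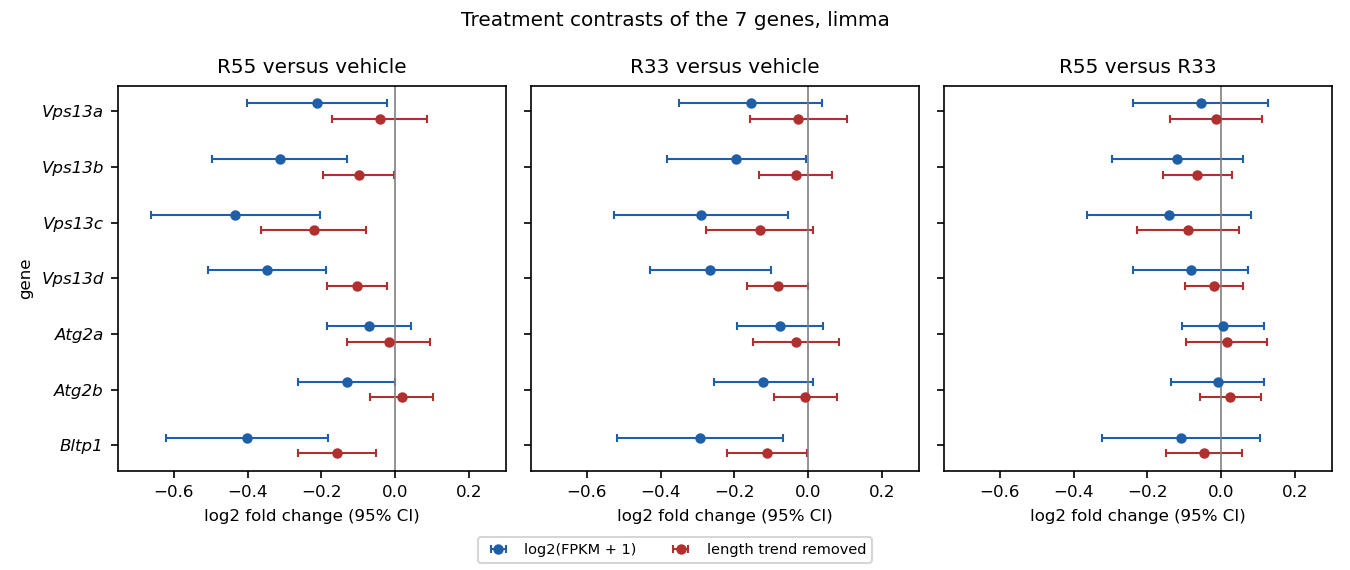
Log2 fold changes (x axis) with 95% confidence intervals from limma for each gene (y axis) in 3 contrasts, on log2(FPKM + 1) (blue) and after removal of each library's trend on transcript length (red). For R55 versus vehicle the blue points run from -0.43 (Vps13c) to -0.07 (Atg2a) and the red points from -0.22 (Vps13c) to 0.02 (Atg2b).

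Fold changes of all genes followed transcript length, so the members were set beside other long genes. Among 323 other genes with transcripts of at least 10000 bp, the median log2 fold change of R55 versus vehicle was -0.19, 95.05% were lower after R55, and 47.1% were lower at an unadjusted p under 0.05. For the 69 other genes from 13000 to below 17000 bp, the range that holds Vps13b, Vps13c, Vps13d and Bltp1, the median was -0.24, its lower quartile -0.34, and 69.6% were lower at that threshold. The median over the 7 members was -0.31, and the median over all tested genes was 0.03. Genes under 2000 bp had a median of 0.09. In the length class of Vps13a and Atg2b, from 10000 to below 13000 bp, 39.1% of 233 other genes were lower at that threshold (median -0.18), and in that of Atg2a, from 5000 to below 10000 bp, 8.53% of 2580 (median -0.05).

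When the trend on length was removed from each library, the log2 fold changes became smaller and their errors too. Vps13c remained at -0.22 (SE 0.069), Bltp1 at -0.16 (SE 0.051), Vps13d at -0.10 (SE 0.040) and Vps13b at -0.10 (SE 0.047), with unadjusted p-values of 0.0036, 0.0051, 0.015 and 0.044 and an adjusted p of 0.75 for each (limma). Vps13a (-0.04, SE 0.062) and Atg2a (-0.02, SE 0.055) were near 0, and Atg2b turned to 0.02 (SE 0.041). On this scale the other genes from 13000 to below 17000 bp had a median of -0.01 and a lower quartile of -0.11, so Vps13c and Bltp1 were below that quartile while Vps13d and Vps13b were just above it. At an unadjusted p under 0.05, 4 of 7 members were lower with the trend removed, against 3.7% of all tested genes. With the correlation within mice modelled as well, 3 of 7 were, without Vps13b, against 211 of 12976 genes lower. Shares among other genes of the members' length are not given on this scale. The exact permutation test over mice on these values gave p = 0.016 for Vps13d and Bltp1, 0.024 for Vps13c and 0.040 for Vps13b. All 5 R55 mice were below every vehicle mouse for Vps13d, and 4 of 5 for Vps13c and Bltp1.

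**Figure D3:**
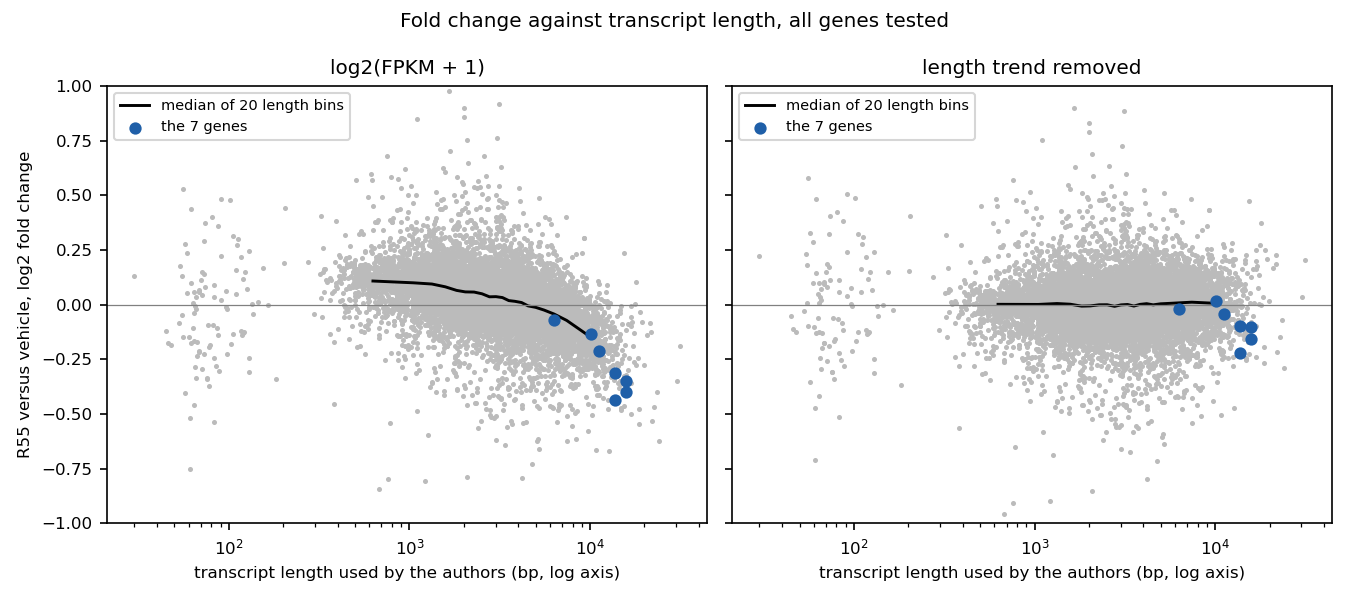
Log2 fold change of R55 versus vehicle (y axis) against the transcript length used by the authors (x axis, bp, log scale) for 12976 genes (grey), with the median of 20 length bins (black line) and the 7 genes (blue), before (left) and after (right) removal of the trend on length. On the left the line falls with length and Atg2a, the shortest member, is closest to 0; on the right the line is flat and Vps13c, at -0.22, is the lowest member.

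The level of the members in a library moved with that library's slope on length, computed without them. This slope is of deviations from the mean of each gene over all libraries, so its sign is relative to the other libraries. Averaged over hemispheres, the slope was 0.10 ± 0.083 log2 units per 10-fold length in vehicle mice (SD, n = 4), -0.016 ± 0.26 in R33 mice (n = 5) and -0.058 ± 0.11 in R55 mice (n = 5). Across the 14 mice the mean deviation of the 7 members correlated with the slope (Pearson's r = 0.84, permutation p = 8e-05; Spearman's rho = 0.82, permutation p = 0.00063), and r was 0.64 without the mice farthest from the median slope, AD and Q. Treatment means were not subtracted here, so these correlations also hold the differences between treatments. Among the 9 mice labelled with 1 letter r was 0.65 (exact permutation p = 0.052) and rho 0.57 (exact permutation p = 0.12), and r was -0.069 without Q and R, so within that series the relation rested on those mice. The part of RNA quality or library preparation in this slope was not tested.

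**Figure D4:**
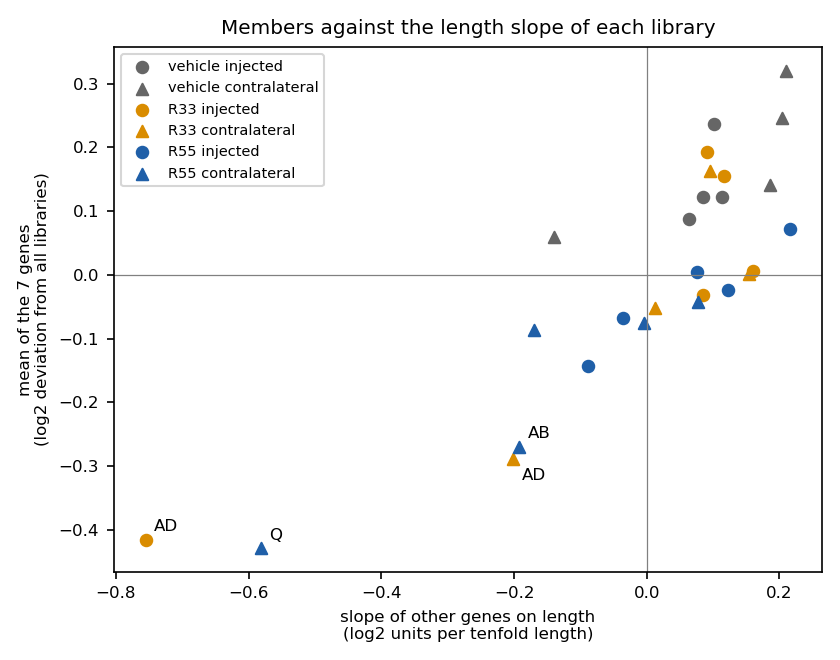
Mean log2 deviation of the 7 genes from their average over all libraries (y axis) against the length slope of each library (x axis), 1 point per library. The slope is that of the same deviation of the other tested genes on transcript length, in log2 units per 10-fold length. Points are coloured by treatment with circles for injected and triangles for contralateral. The injected library of AD and the contralateral library of Q are at the lower left with deviations of -0.42 and -0.43, and the 8 vehicle libraries all lie above 0.

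The comparison of R33 with vehicle had the same sign for all 7 members, which also share the vehicle mice with the R55 comparison. No member was called with limma, and no gene at all (background 0.0% of 12976). At an unadjusted p under 0.05 there were 414 higher and 348 lower genes, and voom on the recovered fragments also called none. Vps13d (log2 fold change -0.26, SE 0.080), Bltp1 (-0.29, SE 0.11), Vps13c (-0.29, SE 0.11) and Vps13b (-0.19, SE 0.091) were lower at an unadjusted p under 0.05, 4 of 7 against 2.68% of all genes, with an adjusted p of 0.83 for each. Vps13a (-0.16), Atg2b (-0.12) and Atg2a (-0.08) did not pass at either threshold. The count of 4 takes the hemispheres of a mouse as independent. It was 3, without Vps13b, with the correlation within mice modelled as a block, against 145 of 12976 genes lower. With 1 value per mouse it was 2, Vps13d and Bltp1, against 167 genes lower. Without the pair of libraries that stood apart it was also 3, without Vps13b, against 261 genes lower. The median over members was then -0.13 in place of -0.19.

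The R33 mice were far from uniform. Bltp1 measured 6.33, 7.88, 6.75, 4.12 and 5.97 FPKM in K, N, O, AD and AE, so that N was within the vehicle range and AD below all other mice of the study. Vps13d measured 6.04, 7.32, 6.63, 4.72 and 6.62 FPKM, and Vps13b 4.02, 4.99, 4.48, 2.73 and 3.75 FPKM, in the same order of mice. Mouse AD was lowest and mouse N highest for each of these genes. Vps13c measured 3.59, 4.25, 3.95, 2.21 and 3.98 FPKM. None of the 7 members had all R33 mice below every vehicle mouse, against 0.416% of all genes (54 of 12976). Without mouse AD the median over members shrank from -0.19 to -0.08. Vps13d alone kept an unadjusted p under 0.05 (log2 fold change -0.17, SE 0.069), against 220 of 12976 genes lower, and no member was called. With the trend on length removed the median was -0.03.

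R55 and R33 were compared directly at the same dose and time over 7 genes, with p-values adjusted over all tested genes. No member was called and none was below an unadjusted p of 0.05 with limma, nor was any gene called (0.0% of 12976, with 95 higher and 54 lower at an unadjusted p under 0.05, and no call with voom). The difference in log2 of R55 minus R33 was -0.14 for Vps13c with a 95% interval from -0.36 to 0.08, -0.12 for Vps13b from -0.30 to 0.06, and -0.11 for Bltp1 from -0.32 to 0.10. It was -0.08 for Vps13d (-0.24 to 0.07), -0.06 for Vps13a (-0.24 to 0.13), -0.01 for Atg2b (-0.14 to 0.12) and 0.01 for Atg2a (-0.11 to 0.12). These intervals hold both no difference and one as large as many of the differences from vehicle, so the compounds were not shown to act alike. Without R33 mouse AD the median over members was -0.17 in place of -0.08, and 4 of 7 members were lower in R55 at an unadjusted p under 0.05. Over all 12976 genes, that fit had 514 lower and 824 higher at that threshold. It called 2 genes, and still no member.

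The injected hemisphere was compared with the contralateral one over vehicle, R33 and R55 mice together. This contrast does not separate the injection from a local effect of the drugs. No member and no gene was called (0.0% of 12976 with limma, 189 genes higher and 261 lower at an unadjusted p under 0.05, none with voom). Vps13c had the largest difference, 0.15 higher on the log2 scale in the injected hemisphere (SE 0.091, adjusted p = 0.9999), and the median over members was 0.05. Vps13a and Atg2a were both at -0.01. With the mouse as a fixed block over the 13 pairs of hemispheres, the median was 0.05, no member or gene was called, and 403 genes were higher and 392 lower at an unadjusted p under 0.05. With the correlation within mice modelled instead, 1 gene that is no member was called, and 6 with the trend on length removed as well, again no members. In vehicle mice alone, mean FPKM was lower on the injected side for every member but Vps13b (4.66 against 4.65). Vps13c measured 4.43 against 4.48 there and Bltp1 7.54 against 7.92, while Vps13c after R55 measured 3.31 against 2.80. The sides were not tested within vehicle mice.

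R55 differences from vehicle were larger in the contralateral than in the injected hemisphere for all 7 members. Vps13a was -0.06 (SE 0.12) on the injected side and -0.37 (SE 0.12) on the contralateral side, and Bltp1 was -0.27 (SE 0.15) and -0.53 (SE 0.14). The contralateral FPKM of Vps13a were 5.16, 3.38, 4.43, 4.10 and 3.83 in R55 mice P, Q, R, AA and AB, and the injected ones were 5.18, 5.88, 4.62, 4.18 and 5.03. The hemispheres of mouse Q were the farthest apart. The interaction of R55 with hemisphere was 0.31 (SE 0.17, unadjusted p = 0.083) for Vps13a and 0.26 (SE 0.22, unadjusted p = 0.24) for Bltp1, and 0 of 7 members and 0.0% of all genes were called for it (limma, 78 genes higher and 161 lower at an unadjusted p under 0.05). With the mouse as a fixed block, which uses the pairing of the hemispheres, Vps13a passed an unadjusted p under 0.05 (0.31, SE 0.14, adjusted p = 0.81), the other 6 members did not, and 318 genes were higher and 452 lower at that threshold with none called. Without the pair of libraries that stood apart, the interaction was 0.25 (SE 0.16) for Vps13a and 0.19 (SE 0.17) for Bltp1, with a median over members of 0.12 in place of 0.22. The sides were therefore not shown to differ after adjustment. With the trend on length removed the median interaction over members went from 0.22 to 0.04. The interaction of R33 with hemisphere called 0 members and 0.0% of genes too (limma, 10 genes higher and 39 lower at an unadjusted p under 0.05), with 0.27 (SE 0.23) for Vps13c as its largest value among the members. Without the pair of libraries that stood apart it was 0.41 (SE 0.18) for Vps13c and 0.28 (SE 0.12) for Vps13d, both at an unadjusted p under 0.05 and neither called. Over all 12976 genes, 51 were higher and 155 lower at that threshold in this fit, with none called.

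Mice carried labels of 1 letter (3 vehicle, 3 R33 and 3 R55) or of 2 letters (1, 2 and 2), and many genes differed between these series, 2477 with limma (19.1% of 12976). Label letters vary between mice and not within them, and 1345 genes were called once the mouse was modelled as a block, or 741 when each mouse gave 1 value. With 0 of 7, no member was among them in any of these fits. In the fit that takes hemispheres as independent, all 7 were lower in mice with 2 letters. Differences ran from -0.06 for Vps13d to -0.18 for Vps13b (SE 0.070, unadjusted p = 0.013, adjusted p = 0.062, limma). With the mouse modelled as a block Vps13b had an unadjusted p of 0.027 (adjusted p = 0.13, limma). With 1 value per mouse it had 0.043 (adjusted p = 0.18, limma). Within the 9 mice with 1 letter, the R55 difference was -0.50 for Vps13c (SE 0.12), -0.36 for Bltp1 (SE 0.097), -0.35 for Vps13d (SE 0.085) and -0.29 for Vps13b (SE 0.081), with adjusted p-values from 0.21 to 0.31 (limma). The R33 median over members within those mice was -0.05 in place of -0.19. Mice with 2 letters include only 1 vehicle mouse, so no value within that series is given.

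Levels of the members varied together across mice. Over 21 pairs and 14 mice, Pearson's r of log2 values ran from 0.15 to 0.96 with a median of 0.80 (Spearman's rho 0.19 to 0.92), and with the treatment means subtracted the median was 0.71. Vps13b and Bltp1 were closest, with r = 0.96 and rho = 0.92 (permutation p = 1e-05 for both, the smallest that 100000 permutations can give, adjusted p = 0.00021 over 42 relations), and r = 0.92 without the mice farthest from the median of Vps13b. Atg2a stood apart, with r = 0.15 to Vps13c (rho = 0.19, permutation p = 0.61 and 0.53). With the trend on length removed the median r over pairs was 0.32. Vps13b and Bltp1 still had r = 0.77 (rho = 0.71, permutation p = 0.0015 and 0.0057, adjusted p = 0.0048 and 0.016), and 0.56 without the farthest mice. Vps13c and Atg2b then had r = -0.69 (rho = -0.59, permutation p = 0.0069 and 0.029, adjusted p = 0.018 and 0.058), and -0.51 without the farthest mice.

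**Figure D5:**
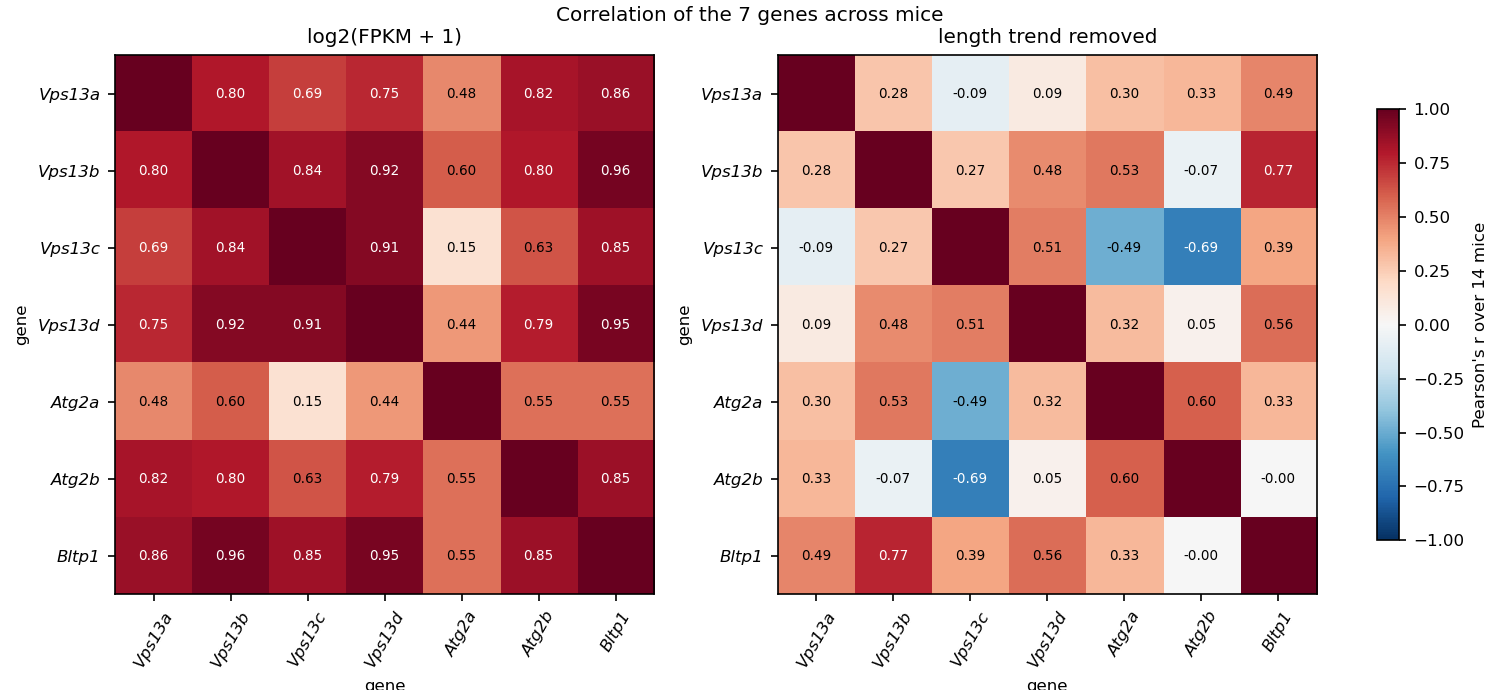
Pearson's r between each pair of the 7 genes over 14 mice, on log2(FPKM + 1) (left) and with each library's trend on length removed (right); both axes list the genes and colour gives r from -1 to 1. On the left the highest value is 0.96 (Vps13b with Bltp1) and on the right the lowest is -0.69 (Vps13c with Atg2b).

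The genes most like the members were other long genes. Over 27 libraries, the 10 tested genes with the highest Pearson's r to the mean of the 7 standardised members included Wdfy3 (0.96), Htt (0.96), Ep400 (0.95), Usp34 (0.95), Zzef1 (0.95), Mycbp2 (0.95), Pclo (0.94), Huwe1 (0.94) and Tnr (0.94). The transcripts of the 10 run from 5395 to 22100 bp with a median of 12710 bp. Wdfy3 encodes a scaffold for autophagy of aggregates and Htt encodes huntingtin. The lowest r were those of Llph (-0.90), Fuom (-0.88), Eif1b (-0.88), Mrps7 (-0.87) and Dtnbp1 (-0.87), whose transcripts are 917 to 2420 bp long. These libraries share depth and the slope on length, and the values are given as a description. With the trend on length removed, the highest r fell to 0.74 (Pclo), and 4 of the same 10 genes were still among the 10 highest.

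Nearest neighbours of single members were long genes as well. Vps13a was most like Kcnma1 (r = 0.91), Fzd3 (0.91) and Ncam2 (0.90), and Vps13b most like its fellow member Bltp1 (0.94), Htt (0.93) and Akap9 (0.93). Vps13c was most like Kmt2c (0.93), Phc3 (0.91) and Vps13d (0.91), and Vps13d most like Mycbp2 (0.96), Ep400 (0.95) and Huwe1 (0.94). Bltp1 was nearest to Wdfy3 (0.96), Ep400 (0.95) and Htt (0.95). Atg2b was nearest to Sec16a (0.94), Gbf1 (0.92) and Gtf3c1 (0.91), and Atg2a, with the lowest such values, to Cabin1 (0.82), Ints1 (0.82) and Chpf2 (0.82).

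Other genes of lipid transfer lay on both sides of 0 in R55 versus vehicle. The remaining mammalian bridge-like genes have shorter transcripts of 6446 to 8567 bp, and 0 of 3 passed at either threshold, at -0.06 (SE 0.069) for Bltp2, 0.01 (SE 0.063) for Bltp3a and -0.13 (SE 0.077) for Bltp3b. Of 17 tested partners of VPS13 and ATG2 proteins (of 18 listed), 4 were lower and 13 higher, with a median of 0.06. With the trend on length removed 8 were lower and 9 higher, with a median of 0.0057. Xk, the partner of VPS13A, was at -0.23 (SE 0.10, unadjusted p = 0.036, adjusted p = 0.57). Map1lc3b, the LC3 protein of autophagosomes, was at 0.16 (SE 0.061, unadjusted p = 0.015, adjusted p = 0.55), and the scramblase gene Vmp1 at 0.14 (SE 0.068, unadjusted p = 0.050, adjusted p = 0.59). Wdr45b, a phosphoinositide-binding autophagy gene, was at 0.10 (SE 0.055, adjusted p = 0.60).

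Of 6 tested genes with an SMP domain, the tubular lipid transfer module, 4 were lower and 2 higher (median -0.05), and 3 and 3 with the trend on length removed. Esyt1, which tethers the endoplasmic reticulum to the plasma membrane, had the smallest p, with a log2 fold change of 0.33 (SE 0.085, unadjusted p = 0.00072, adjusted p = 0.26), and its relative Esyt2 was at -0.16 (SE 0.10, adjusted p = 0.62). Tex2 and C2cd2l were at -0.06 (SE 0.057) and -0.05 (SE 0.055). Of 22 tested shuttle proteins, which carry single lipids, 10 were lower and 12 higher, with a median of 0.02 beside 0.03 for all tested genes, and 7 and 15 with the trend on length removed. Pitpnb, a phosphatidylinositol transfer protein, was at 0.10 (SE 0.042, unadjusted p = 0.028, adjusted p = 0.56) and Osbpl1a, an oxysterol-binding relative, at 0.29 (SE 0.14, adjusted p = 0.59). Gramd1b, a sterol carrier, was at -0.12 (SE 0.074), and Stard4 at -0.14 (SE 0.087). None of the tested genes on these 4 lists was called (limma), and Esyt3 and Gramd1c were below the filter on low values.

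Markers of cell types were measured beside these differences. In R55 versus vehicle, the summed FPKM of 5 neuronal markers ran from 1992 to 3139 in vehicle libraries and from 2346 to 3200.5 after R55, and 0 of 5 passed at an unadjusted p under 0.05. The 4 astrocyte markers were all higher after R55, 1 of them at an unadjusted p under 0.05, with sums of 178.5 to 417.5 in vehicle and 269.7 to 414 in R55 libraries. The 4 oligodendrocyte markers were all higher too, none at that threshold, with sums of 429 to 1793.5 and 748 to 1605. The 5 microglial markers summed to 122 to 186 and 103 to 249.9, with none at that threshold. The 3 endothelial markers were all lower, none at that threshold, and summed to 25.2 to 57.1 and 19.8 to 81.6. Blocks also varied in neighbouring tissue, since the sum of the choroid plexus markers Ttr and Folr1 ran from 2.26 to 1116 FPKM in vehicle, 3.14 to 1628 in R33 and 3.55 to 148.5 in R55 libraries. The 3 striatal markers summed to 35.4 to 135 in vehicle, 27.4 to 185 in R33 and 29.3 to 59.98 in R55 libraries, and the 3 markers of cortical excitatory neurons to 72.0 to 145.5, 87.3 to 124 and 78.5 to 126. The part of cell makeup in the members' differences was not tested.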

How the data were processed

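Total RNA of cortical blocks was made into stranded mRNA libraries, sequenced as read pairs and aligned to GRCm39 with HISAT2 by the authors; the counting tool, its annotation and its strand setting are not given in the sources used here. The authors deposited 1 table of FPKM values per gene, with 32 libraries, of which 5 were not used here, and 32 leftover header lines were dropped. The table holds no columns of the authors' own comparisons. Every FPKM value above 0 was within 0.01 of a whole number of fragments, which gave fragments per gene and library (15932197 to 38077027 per library) and the transcript lengths used.

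Values of the 12976 genes whose average across the 27 libraries reached 1 FPKM were compared as log2(FPKM + 1) in limma 3.58.1 in R 4.3.3, with treatment and hemisphere as terms, an intensity trend, and all treatments in 1 fit; p-values were adjusted by Benjamini-Hochberg across these genes, and a call is an adjusted p-value under 0.05. The fit differs from the authors' DESeq2 analysis, which takes counts. Trends on length were removed per library by lowess (span 0.3) on log10 length. Tests over mice were two-sided permutation tests in Python 3.11.15 with numpy 2.4.6, exact for differences between groups and for the correlations over 9 mice, and with 100000 random permutations for the correlations over 14 mice. Mice are separate animals. Hemispheres of the same mouse pair the libraries: deviations from the group means correlated in 13 pairs with a mean r of 0.39 (-0.079 to 0.65). The main fit treats them as independent, and counts that fell when this correlation was modelled are given beside it. The code was tested on simulated data.

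The members and gene lists were chosen with earlier results of these data known. Genes named are the 7 members, up to 4 genes per list with the smallest p in R55 versus vehicle, the 10 most and 5 least like the member mean, the 3 most like each member, a gene that is the only one called, and genes whose exons overlap a member; 1 gene that this rule names is not reported here. Alternatives were median-of-ratios scaling, no filter, a pseudocount of 0.1, the replicate block, 1 value per mouse, single hemispheres, label letters, the length trend, voom, and leaving out each mouse. Leaving out the pair of libraries that stood apart, for treatments and for their interactions with hemisphere, the exact tests over mice, and the length trend together with the mouse block for the hemispheres were chosen after seeing the data.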

Additional observations from a re-analysis of the deposited data

Results flagged for a closer look

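Within groups of libraries, a pair of values lay far from the others of their group by Dixon's criterion at 95%. Vps13d in the contralateral hemisphere of vehicle mouse J measured 6.684 FPKM, with the other 3 vehicle mice between 8.166 and 8.459 FPKM (gap of 0.835 of the range, critical value 0.829 for 4 libraries). Atg2b in the injected hemisphere of vehicle mouse M measured 5.123 FPKM, with the others between 6.163 and 6.225 FPKM (gap of 0.943 of the range). With 42 groups tested, chance alone flags about 1 in 20. Without mouse J no member was called in R55 versus vehicle and the median log2 fold change over members was -0.34, and without mouse M it was -0.31.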

How the results depend on the processing

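Among the alternatives, the count of called members changed in R55 versus vehicle under the following settings. With R55 and vehicle mice alone in the fit 1 member was called in R55 versus vehicle. Leaving out 1 mouse at a time, with the hemispheres of a mouse taken as independent throughout, gave 0 to 4 called, the 4 without R33 mouse AD. The R55 median over members ran from -0.34 to -0.28 over those fits and was -0.10 with the length trend removed, with or without the replicate block. The R33 median ran from -0.27 to -0.08, was -0.049 in mice with 1 letter, -0.034 with the length trend removed and -0.040 with the replicate block added. With the replicate block alone, the correlation within mice was modelled at 0.35 and the R55 median was -0.31. In that fit 4 members in place of 6 were lower at an unadjusted p under 0.05, against 258 genes in place of 485 over all 12976. The genes called went from 1 to 0, and no member's call changed. For the label letters, called genes went from 2477 to 1345 (741 with 1 value per mouse). In the order of levels, Vps13b exceeded Vps13c by 0.31 FPKM in the injected hemisphere, no longer past the threshold, and Vps13d over Bltp1 was -0.0081 FPKM there and ran from -0.0027 to 0.091 without 1 mouse.

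Small differences changed sign, none of them called; the cause was not tested. With the length trend removed, with or without the block, Atg2b was 0.017 in R55 versus vehicle. For R55 minus R33, Vps13a was 0.13 and Atg2b 0.029 in the injected hemisphere, Atg2a was -0.063 in the contralateral one and -0.014 in mice with 1 letter, and Atg2b was 0.025 with the length trend removed and 0.024 with the block added. Without 1 mouse, Vps13a ran from -0.14 to 0.017, Atg2a from -0.018 to 0.032 and Atg2b from -0.072 to 0.012. Between hemispheres, Vps13a ran from -0.063 to 0.014 and Atg2a from -0.035 to 0.0049 without 1 mouse, and Atg2a was 0.022 in mice with 1 letter and 0.0044 with the mouse as a block. With the length trend removed, the interaction of R55 with hemisphere was -0.077 for Vps13b and -0.039 for Atg2b, that of R33 was 0.024 for Atg2a (0.034 with the mouse as a block and 0.0067 without the pair of libraries that stood apart, where Vps13a was 0.012), and the difference between label letters was 0.056 for Vps13d, 0.0033 for Atg2a and 0.032 for Atg2b.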

Other observations

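The 7 genes differed in how far single R33 mice strayed. The SD over 5 R33 mice was 1.37 FPKM for Bltp1 and 0.98 FPKM for Vps13d, against 0.35 and 0.32 FPKM over 5 R55 mice, and for Atg2a it was 0.72 against 0.38 FPKM. Without mouse AD the SD over 4 R33 mice was 0.83 FPKM for Bltp1, 0.52 for Vps13d and 0.82 for Atg2a. The spread of the members between R33 and R55 mice was not tested.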
